A study of Mus musculus with 13 samples.

Results

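The transcripts of 8 lysine acetyltransferase genes were followed, the members being those whose symbol in the deposited gene tables is Ep300, Crebbp, Kat2a, Kat2b, Kat5, Kat6a, Kat6b or Kat8. All 8 were present among the 24328 genes of each of 13 mouse mRNA sequencing libraries, and all 8 passed the filter on low counts in the time course. The leukemia stem cells (LSC) of a murine MLL-AF10 leukemia, labelled as tumor, were exposed to A-485, a catalytic inhibitor of p300 and CBP, and 2 libraries were made at each of 8, 24, 48 and 72 h and at 0 h, the last being labelled untreated. The labels name neither a dose nor a vehicle control. Within the course only the 0 h libraries are untreated, so A-485 and time in culture cannot be told apart. They also do not say whether both libraries of a time are separate cultures, so the p-values measure only the spread between these libraries, which may be technical. One library each came from mAML, the mature leukemia cells, from LSC, and from wild-type (WT) granulocyte-monocyte progenitors (GMP). Bone marrow is the source label of every library, and the leukemia cells were kept in RPMI 1640 with serum and WEHI-conditioned medium, so the leukemia is a cultured transformed model. Strain, age and the number of animals or clones are not named in the labels.

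Lysine acetyltransferases move the acetyl group of acetyl-CoA onto lysines of histones and other proteins. p300 (Ep300) and CBP (Crebbp) are a pair of large paralogous coactivators that bind transcription factors at enhancers and acetylate histone H3 there, and both genes are essential in blood formation. The other members belong to a pair of families: GCN5 (Kat2a) and PCAF (Kat2b) are alternative catalytic subunits of the SAGA and ATAC complexes, while TIP60 (Kat5), MOZ (Kat6a), MORF (Kat6b) and MOF (Kat8) are MYST enzymes. MOZ and MORF share their BRPF scaffolds, and MOF works in the MSL and NSL complexes. MOZ is itself rearranged in human leukemia, and MOF is the main acetyltransferase for lysine 16 of histone H4.

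Upstream sequences are shown for Kat2a and Kat2b, the paralogs whose ratio to each other shifted under A-485 as described below, and for Kat6b, whose transcript had the largest log2 change of the 8 at 72 h on TMM-scaled counts (1.99, beside 1.89 for Crebbp, which was the larger on log2(TPM + 1)). They come from RefSeq on GRCm38.p6, are the bases just before the annotated start, and read 5′ to 3′ along the gene. The capitals mark matches, on either strand, to 1 of 4 motifs searched: the GC box GGGCGG, the CCAAT box CCAAT, the E-box CACGTG and the cAMP response half-site TGACGT. The Kat2a stretch is chr11:100712468-100712717 (minus strand), the Kat2b stretch chr17:53566721-53566970 (plus strand) and the Kat6b stretch chr14:21499520-21499769 (plus strand). None of the 3 overlapped an annotated exon.
Kat2a: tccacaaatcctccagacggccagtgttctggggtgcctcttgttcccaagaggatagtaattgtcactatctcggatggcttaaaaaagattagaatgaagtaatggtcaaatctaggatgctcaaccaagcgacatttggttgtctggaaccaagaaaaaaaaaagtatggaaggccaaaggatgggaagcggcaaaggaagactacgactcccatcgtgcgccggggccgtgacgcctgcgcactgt
Kat2b: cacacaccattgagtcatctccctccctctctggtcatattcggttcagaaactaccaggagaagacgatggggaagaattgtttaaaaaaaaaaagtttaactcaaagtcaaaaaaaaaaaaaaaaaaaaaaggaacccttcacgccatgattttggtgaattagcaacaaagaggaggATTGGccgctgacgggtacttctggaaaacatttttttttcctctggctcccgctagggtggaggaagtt
Kat6b: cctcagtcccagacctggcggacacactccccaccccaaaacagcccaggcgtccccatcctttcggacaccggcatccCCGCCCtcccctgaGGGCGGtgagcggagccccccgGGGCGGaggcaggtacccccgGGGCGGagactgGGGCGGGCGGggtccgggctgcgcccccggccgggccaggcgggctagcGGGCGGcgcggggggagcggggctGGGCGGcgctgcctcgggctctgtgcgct

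The Kat6b stretch held 8 GC boxes, 1 pair of which overlaps, and no other motif. The Kat2b stretch held 1 CCAAT box, on the other strand, and the Kat2a stretch held none of the 4 motifs. Another annotated start of Kat2b, at chr17:53583876-53584125 and also free of exons, held none of the 4 motifs. Another start of Kat6b has its window at chr14:21499535-21499784, which overlaps an exon and shares most of its bases with the stretch shown. It held the same 8 GC boxes and is no separate stretch. Over 32851 RefSeq promoter windows of the same 250 bases, 32.7% held a GC box, 33.9% a CCAAT box, 6.02% an E-box and 6.47% the cAMP response half-site. A match is a description of the letters and no match says only that these letters are not in this window. Of the 8 members, 7 were matched in the promoter table: Ep300, Crebbp, Kat2a, Kat2b, Kat5, Kat6b and Kat8. The windows of Ep300, Crebbp and Kat5 overlap annotated exons and are not shown.

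The time-course libraries held 6467764 to 9763276 counts, and the mAML, LSC and GMP libraries 47257637, 40468524 and 24532513 counts. The least covered member value was 138 counts, for Kat6b at 0 h. The time course changed in make-up as well: reads came from transcripts averaging 3670 and 3787 nt at 72 h, against 3115 and 3128 nt at 0 h, and the long nuclear RNA Malat1 reached 2666 and 3063 CPM at 72 h, against 321 and 328 CPM at 0 h (CPM, counts scaled to library size after TMM). Genes with an effective length over 7000 nt had a median log2 change of 0.49 at 72 h and genes under 1000 nt one of -0.54. The 2 libraries of a time differed by more than counting noise, with a chi-square per gene of 5.80 at 48 h to 24.1 at 24 h. Mpo, for example, was at 351 and 27.1 CPM at 8 h. Whether this spread lies in the cells or in the handling was not tested. Markers of GMP summed to 283 to 1175 CPM in the 8 treated libraries, against 8416 and 9080 CPM at 0 h, with Kit, which marks LSC too, at 0 to 8.17 CPM, against 199 and 202 CPM, while Fcgr3 overlapped between the groups. Mature myeloid markers summed to 667 to 1657 CPM under A-485, against 3507 and 4736 CPM at 0 h, and most of the 0 h sum was Ly6c2 (2500 and 3537 CPM), while Itgam overlapped and Mmp8 was at 0 in all 10 libraries. The 6 LSC markers summed to 511 to 1049 CPM under A-485, against 1263 and 1334 CPM at 0 h, but the list was split. Kit and Myb were lower, Myb at 171 to 313 CPM under A-485, against 698 and 721 CPM. Hoxa9 had 222 and 238 CPM at 72 h, against 125 and 155 CPM at 0 h, and Meis1 114 and 81.7 CPM, against 35.3 and 55.99 CPM. Pbx3 had 65.4 and 64.1 CPM at 72 h, against 34.0 and 36.5 CPM, and Hoxa10 281 and 194 CPM, against 145 and 189 CPM. At earlier times Hoxa9 overlapped the 0 h libraries at 8 h (113 and 152 CPM) and 24 h (128 and 203 CPM). Hoxa10 overlapped them at 8 h (98.3 and 225 CPM), 24 h and 48 h, and Meis1 at 8 h (51.6 and 76.9 CPM). Pbx3 was above both 0 h libraries in every treated library. The 5 markers of eosinophils, mast cells and basophils summed to 4.88 to 108 CPM under A-485, against 371 and 445 CPM at 0 h. The 5 stromal and endothelial markers summed to 235 to 619 CPM, against 902 and 1017 CPM at 0 h, nearly all of it Pecam1 (898 and 1014 CPM at 0 h), with Cdh5 at 0 throughout and Col1a1, Col1a2 and Cxcl12 at no more than 2.47 CPM. The 4 megakaryocyte markers summed to 22.0 to 466 CPM, against 357 and 430 CPM, nearly all of it Itga2b (343 and 417 CPM at 0 h), with Pf4, Ppbp and Gp1bb at no more than 9.05 CPM. Erythroid, B cell and T and NK cell markers each summed to at most 92.5 CPM in every library of the course. Their part in the members' changes was not tested, and in bulk RNA fewer cells of a type and less RNA per cell cannot be told apart.

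The first question was what happened to the transcripts of the inhibited enzymes and of their relatives under A-485. All levels here are relative to the other transcripts of a library. No spike-in or cell count entered the scaling, so transcripts per cell cannot be read from them. Of the 8 members, 6 rose at 8 h and at each later time against 0 h: Ep300, Crebbp, Kat2b, Kat5, Kat6a and Kat6b. Kat2a fell at 24, 48 and 72 h on TMM-scaled counts, though not by library size alone and not in TPM, where its sign turned at 48 and 72 h. Kat8 passed the test at no time on TMM-scaled counts. Calls rest on edgeR's quasi-likelihood test over all 11119 genes tested, with the Benjamini-Hochberg adjusted p below 0.05. Of these genes 17.9% passed as higher and 21% as lower at 8 h (38.9% in either direction), 23.2% and 27.1% at 24 h (50.3%), 25.2% and 30.5% at 48 h (55.6%), and 25.9% and 29.4% at 72 h (55.3%), so that calls were common. Over all 4 treated times together 7 of 8 members were called, Kat8 being the exception (adjusted p = 0.613), against 59.8% of all genes. The median log2 change of the 8 members was 0.90, 1.05, 1.12 and 0.99 at 8, 24, 48 and 72 h, beside 0.01, -0.03, -0.04 and -0.02 for all genes tested.

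Ep300, the gene of p300, was at 19.4 and 21.3 TPM (the deposited level per transcript length, scaled within each library) at 0 h, 60.8 and 69.3 TPM at 8 h, 93.0 and 77.4 TPM at 24 h, 127 and 102 TPM at 48 h, and 119 and 101 TPM at 72 h. All 8 treated libraries were above both untreated ones, and the gap between 0 and 8 h was wider than any later step. On TMM-scaled counts the log2 change against 0 h was 1.22 ± 0.14 (SE) at 8 h, 1.54 ± 0.14 at 24 h, 1.82 ± 0.14 at 48 h and 1.71 ± 0.14 at 72 h, with adjusted p values by edgeR of 0.000342, 7.87e-05, 2.37e-05 and 3.06e-05. These correspond to 2.33-fold, 2.91-fold, 3.53-fold and 3.27-fold higher levels.

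Crebbp, the gene of CBP, stood lower than its paralog throughout. It was at 7.30 and 6.79 TPM at 0 h, 27.4 and 34.0 TPM at 8 h, 35.4 and 32.6 TPM at 24 h, 48.8 and 41.0 TPM at 48 h, and 45.9 and 40.3 TPM at 72 h. Again no treated library overlapped the untreated ones. Its log2 changes on TMM-scaled counts were 1.67 ± 0.13, 1.75 ± 0.13, 1.997 ± 0.13 and 1.89 ± 0.13 (adjusted p by edgeR 6.23e-05, 3.79e-05, 1.2e-05 and 1.58e-05). The Crebbp change at 48 h amounted to a 3.99-fold higher level. Together Ep300 and Crebbp took 31.5% to 39.2% of the summed TPM of the 8 members in treated libraries, against 19.2% and 19.8% at 0 h.

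**Figure D1:**
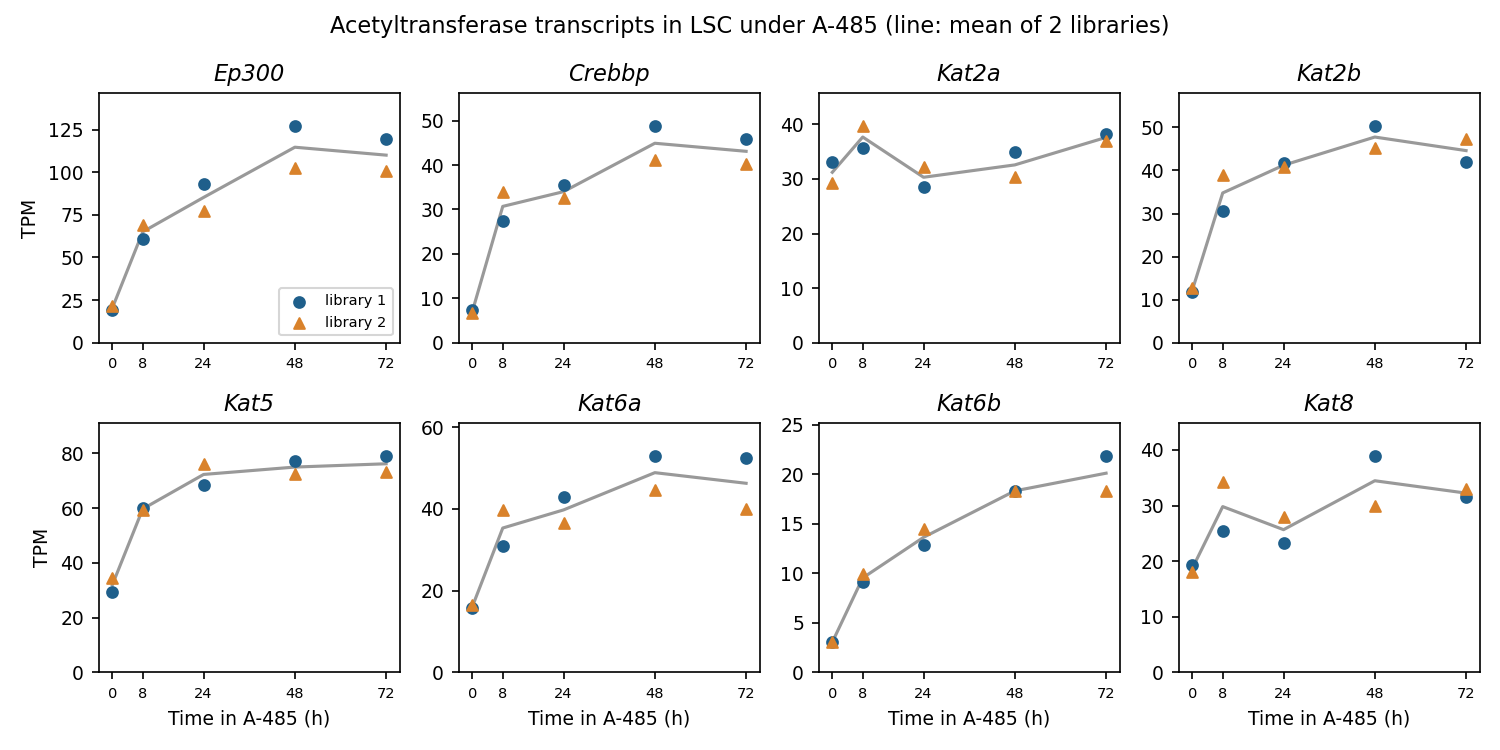
Level of each acetyltransferase transcript in LSC (TPM, vertical axis from 0) against time in A-485 (h), with 1 point per library and a line through the mean of the 2 libraries. Ep300 runs from 19.4 and 21.3 TPM at 0 h to 119 and 101 TPM at 72 h, while Kat2a stays between 28.5 and 39.7 TPM in all 10 libraries.

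Of the GCN5 and PCAF pair, Kat2b rose under each scaling, while Kat2a fell on TMM-scaled counts and not in TPM. Kat2b, the PCAF gene, was at 11.7 and 12.6 TPM at 0 h, 30.7 and 38.9 TPM at 8 h, 41.6 and 40.8 TPM at 24 h, 50.3 and 45.2 TPM at 48 h, and 41.9 and 47.3 TPM at 72 h. Every treated library lay above both untreated ones. The log2 change of Kat2b was 1.12 ± 0.13 at 8 h and between 1.17 and 1.31 at the later times, with adjusted p values by edgeR of 0.000467 at 8 h, 0.000151 at 24 h, 8.86e-05 at 48 h and 0.000162 at 72 h.

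Kat2a, the GCN5 gene, gave 82.5 and 73.0 CPM at 0 h, 66.3 and 71.1 CPM at 8 h, 48.9 and 56.4 CPM at 24 h, 53.8 and 47.7 CPM at 48 h, and 56.7 and 57.4 CPM at 72 h after TMM scaling. The treated libraries all lay below the untreated ones on this scale. Its log2 change was -0.18 ± 0.13 at 8 h, which did not pass the test (adjusted p by edgeR 0.295), then -0.56 ± 0.13 at 24 h, -0.62 ± 0.13 at 48 h and -0.45 ± 0.13 at 72 h (0.00718, 0.00391 and 0.0174). In TPM, Kat2a did not fall: it had 38.2 and 37.0 TPM at 72 h, against 33.2 and 29.3 TPM at 0 h. The scalings differ in where they put the median gene, which was at -0.02 at 72 h under TMM, 0.35 under library size alone and 0.62 on log2(TPM + 1). By library size alone Kat2a passed at no time, with log2 changes of -0.26, -0.26 and -0.08 at 24, 48 and 72 h (adjusted p by edgeR 0.118, 0.103 and 0.604). Relative to that median Kat2a was lower at 72 h under each of 12 settings, with differences from it of -0.51 to -0.35. Subtracting the median takes the scaling out, so settings that differ in scaling alone had to agree (-0.43 under TMM and by library size alone). The number of settings is therefore no separate support for a fall. The call at 72 h was also lost without 0 h replicate 1 (adjusted p by edgeR 0.146), 72 h replicate 1 (0.0738) or 72 h replicate 2 (0.0666), and that at 24 h without 0 h replicate 1 (0.0673).

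The ratio of Kat2a to Kat2b within a library is free of the library's scaling. It was 1.16 and 1.02 at 8 h, 0.68 and 0.79 at 24 h, 0.69 and 0.67 at 48 h and 0.91 and 0.78 at 72 h, beside 2.83 and 2.32 at 0 h, in TPM. The treated libraries did not overlap the untreated ones, and at 24 h and later Kat2b was the more abundant transcript of the pair. The ratio of Ep300 to Crebbp moved less, at 2.04 to 2.63 in treated libraries, against 2.66 and 3.14 at 0 h. No test was run on the ratios.

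**Figure D2:**
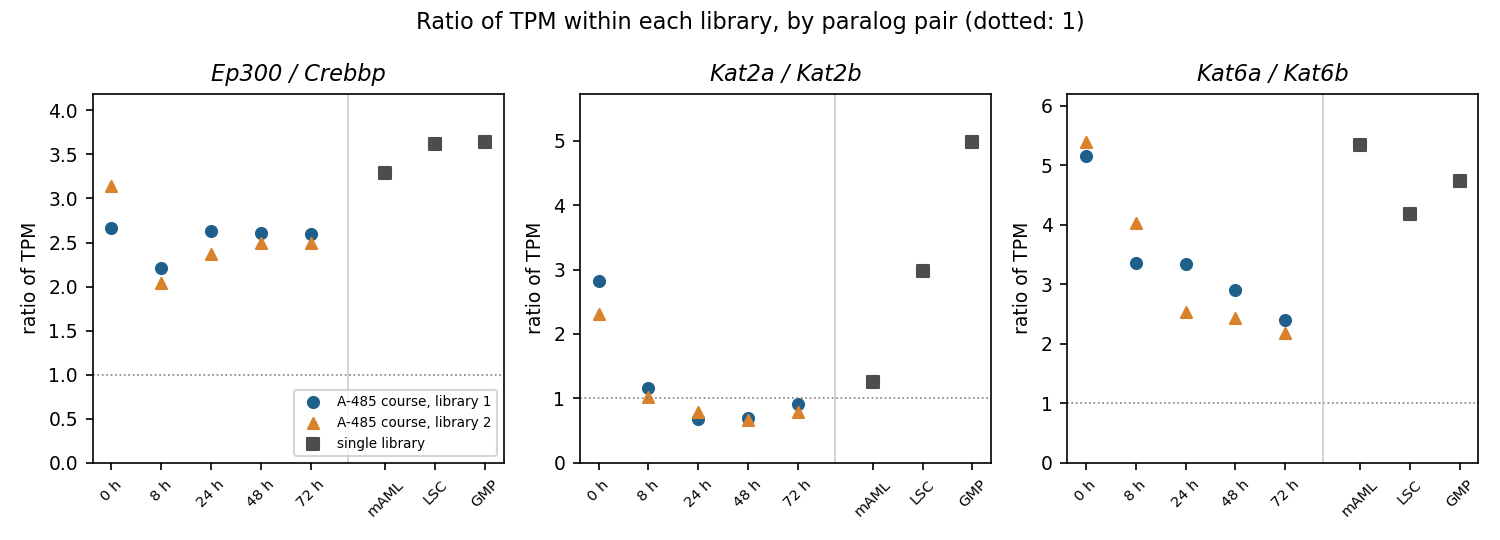
Ratio of TPM between paralogs within each library (vertical axes from 0, dotted line at 1), for the A-485 course with 2 libraries a time and for the single mAML, LSC and GMP libraries. The Kat2a to Kat2b ratio is 0.67 to 1.16 under A-485, against 2.32 and 2.83 at 0 h, and is 1.25 in mAML, 2.98 in LSC and 4.99 in GMP.

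Among the MYST enzymes Kat6b moved most. Kat6b, the MORF gene, was the least abundant member at 0 h with 3.05 and 3.04 TPM, and had 9.16 and 9.89 TPM at 8 h, 12.8 and 14.4 TPM at 24 h, 18.3 TPM in both libraries at 48 h, and 21.9 and 18.3 TPM at 72 h. Each time lay above the one before it up to 48 h, with no overlap of libraries. The log2 change against 0 h on TMM-scaled counts was 1.18 ± 0.13, 1.63 ± 0.13, 1.90 ± 0.13 and 1.99 ± 0.13 at 8, 24, 48 and 72 h (adjusted p by edgeR 0.00035, 5.58e-05, 1.66e-05 and 1.5e-05). At 72 h this was a 3.97-fold higher level.

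Kat6a, the MOZ gene, had 15.7 and 16.4 TPM at 0 h, 30.8 and 39.8 TPM at 8 h, 42.9 and 36.6 TPM at 24 h, 53.0 and 44.7 TPM at 48 h, and 52.4 and 40.1 TPM at 72 h. All treated libraries were above both untreated ones. It rose by less than its paralog, with log2 changes of 0.68 ± 0.15, 0.78 ± 0.15, 0.93 ± 0.16 and 0.80 ± 0.16 on TMM-scaled counts (adjusted p by edgeR 0.00902, 0.0035, 0.00114 and 0.00256), and the difference between the paralogs was not tested. The ratio of Kat6a to Kat6b was 2.19 to 4.02 in treated libraries, against 5.16 and 5.40 at 0 h. Without 8 h replicate 2 the 8 h call of Kat6a was lost (adjusted p by edgeR 0.0569), and with the trend of counts on transcript length removed its changes at 8, 24, 48 and 72 h were 0.47, 0.40, 0.42 and 0.35 (adjusted p 0.00851, 0.0141, 0.00952 and 0.021), smaller by a factor of over 1.5 at 24, 48 and 72 h.

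Kat5, the TIP60 gene, was at 29.5 and 34.5 TPM at 0 h, 60.2 and 59.3 TPM at 8 h, 68.6 and 76.1 TPM at 24 h, 77.4 and 72.6 TPM at 48 h, and 79.2 and 73.3 TPM at 72 h. No treated library overlapped the untreated ones. Its log2 change on TMM-scaled counts was smaller, at 0.44 ± 0.12, 0.64 ± 0.12, 0.52 ± 0.12 and 0.53 ± 0.12 (adjusted p by edgeR 0.0212, 0.00291, 0.00684 and 0.00602). The 8 h call was lost without 0 h replicate 1 (0.0933), 8 h replicate 1 (0.0678) or 8 h replicate 2 (0.053), and with the 2 times fitted alone (0.0659). On log2(TPM + 1) the Kat5 change at 72 h was 1.23, where the median of all genes was 0.62.

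Kat8, the MOF gene, had 20.1 and 21.4 CPM at 0 h and 17.9 to 27.2 CPM in the 8 treated libraries after TMM scaling, so that its groups overlapped at every time. Its log2 change was 0.22 at 8 h (95% interval -0.23 to 0.68), -0.06 at 24 h (-0.52 to 0.40), 0.20 at 48 h (-0.26 to 0.66) and 0.08 at 72 h (-0.37 to 0.54), with adjusted p values by edgeR between 0.403 and 0.82. By library size alone Kat8 was called higher at 8 h (0.54, adjusted p 0.0495) and 48 h (0.55, 0.0389). On log2(TPM + 1) Kat8 was called higher by limma at 8 h (0.63, adjusted p 0.0197), 48 h (0.84, 0.00389) and 72 h (0.76, 0.00631), where the median of all genes was 0.41, 0.56 and 0.62.

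**Figure D3:**
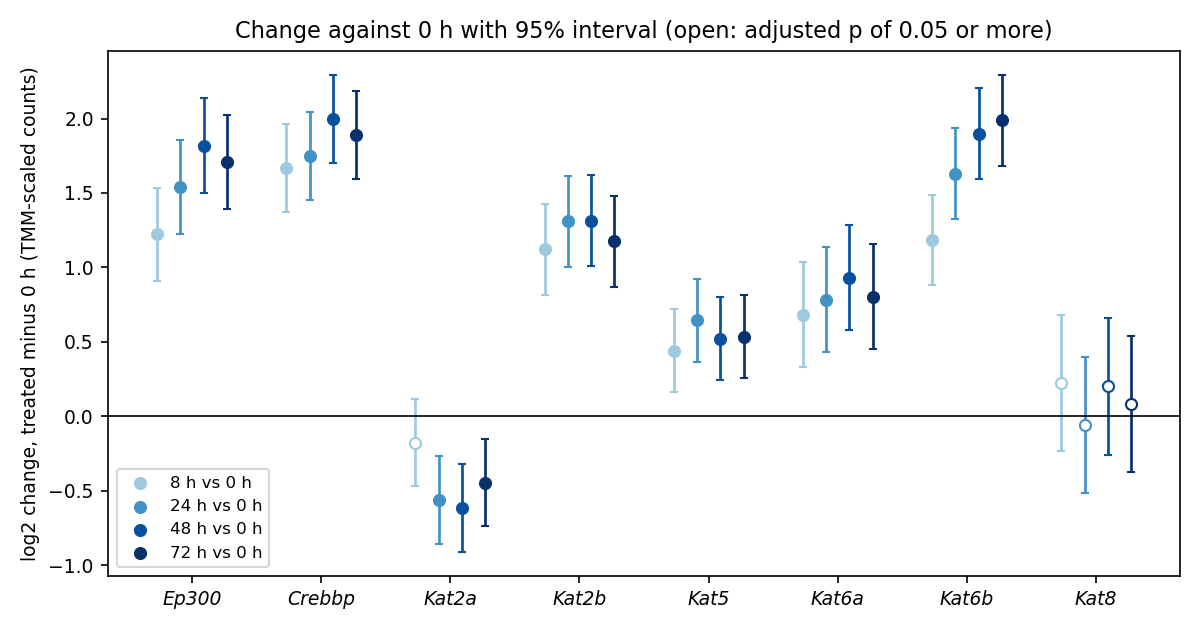
Log2 change of each member at 8, 24, 48 and 72 h of A-485 against 0 h (TMM-scaled counts, edgeR), with 95% intervals, filled where the adjusted p is under 0.05. The changes of Ep300, Crebbp and Kat6b lie between 1.18 and 1.997, those of Kat2a between -0.62 and -0.18 (above 0 in TPM at 8, 48 and 72 h), and the intervals of Kat8 all hold 0.

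Both libraries of a treated time lay above both 0 h libraries on TMM-scaled counts for 6 members, and below them for 1 member, Kat2a, at each of the 4 times. Of all genes, 36.7%, 36.6%, 39.7% and 39.1% lay above at 8, 24, 48 and 72 h, and 36.4%, 40.2%, 43.5% and 41.8% below. The 6 members that rose were 1884 to 9126 nt long, with Kat2a at 3045 to 3046 nt and Kat8 at 1503 nt. Of the 6, Ep300 (8749 nt), Crebbp (7507 nt), Kat6a (9126 nt) and Kat6b (7198 to 7322 nt) were over 7000 nt. The 561 genes with an effective length over 7000 nt had median log2 changes of 0.25, 0.37, 0.47 and 0.49 at 8, 24, 48 and 72 h. With the length trend removed, all 6 were still called higher at each of the 4 times, at log2 changes of 1.28 for Ep300, 1.51 for Crebbp, 0.96 for Kat2b, 0.67 for Kat5, 0.35 for Kat6a and 1.62 for Kat6b at 72 h, and Kat2a was still called lower at 24, 48 and 72 h. In a version of that fit whose trend was not centred, and which moved the median of all genes to 0.27 at 72 h, the Kat2a call at 72 h was lost (-0.24, adjusted p by edgeR 0.189). Ep300, Crebbp, Kat6a and Kat8 have 1 transcript each in the files. The isoform-weighted length of Kat2b ran from 4413 to 4654 nt in treated libraries, against 4333 and 4487 nt at 0 h.

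Between treated times few members moved. From 8 to 24 h, Kat6b alone passed the test (log2 change 0.45 ± 0.13, adjusted p by edgeR 0.0381), where 9.73% of genes passed as higher and 12% as lower (21.7% in all), and this call was lost in 7 of 10 fits that leave out a library, with adjusted p values up to 0.162. At 72 h against 8 h, Kat6b had 71.1 and 81.8 CPM, against 42.5 and 44.99 CPM, and rose by 0.80 ± 0.13 (0.00207). Ep300 had 539 and 475 CPM at 72 h, against 344 and 379 CPM at 8 h, a log2 change of 0.49 ± 0.13 (0.0239). In that comparison 15.1% of genes passed as higher and 17.2% as lower (32.2% in all). Both 72 h libraries lay above both 8 h libraries for 4 members and below them for 1, Kat2a, beside 32.2% and 33.7% of all genes. The Ep300 call was lost with the length trend removed and centred (0.26, adjusted p 0.0797), without 8 h replicate 1 (0.41, 0.119) and without 72 h replicate 1 (0.39, 0.125), while Kat6b kept its call under each setting tried. No member was called at 48 h against 24 h, where 0.027% of genes passed as higher and 2.1% as lower (2.12% in all). At 72 h against 48 h edgeR called 0 of 11119 genes, 498 had an unadjusted p under 0.05, and DESeq2 called 8 genes higher and 4 lower, none of them a member.

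In level per length, Kat5 (32.0 ± 3.50 TPM, mean ± SD, n = 2) and Kat2a (31.2 ± 2.77 TPM) stood highest at 0 h and overlapped each other. Below them came Ep300, Kat8 (18.7 TPM), Kat6a (16.1 TPM), Kat2b (12.2 TPM), Crebbp (7.05 TPM) and Kat6b (3.05 TPM), each above the next with no overlap. At every treated time Ep300 was first and Kat5 second, with no overlap between them, and Kat6b last. At 72 h Kat6a (46.3 TPM), Kat2b (44.6 TPM) and Crebbp (43.1 TPM) followed and overlapped, and Kat2a (37.6 TPM) and Kat8 (32.2 TPM) came after them without overlap. Kat2a thus stood second of 8 at 0 h and sixth at 72 h.

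The single libraries asked how these transcripts differ between mature leukemia cells, leukemia stem cells and normal progenitors. They have no replicates, so differences are given with a 95% exact binomial interval that covers counting error only, and no test was made. Crebbp and Ep300 were highest in mAML and Kat2a was lowest there. Crebbp was at 10.6 TPM in mAML, 6.83 TPM in LSC and 6.23 TPM in GMP, and its log2 ratio of mAML over GMP was 1.08 [0.97, 1.21] on TMM-scaled counts. Ep300 was at 35.0, 24.7 and 22.7 TPM in mAML, LSC and GMP, with a ratio of 0.94 [0.88, 1.00]. Kat2a was at 22.1 TPM in mAML, 37.3 TPM in LSC and 64.5 TPM in GMP, and the ratio of mAML over GMP was -1.23 [-1.32, -1.15].

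Of mAML over GMP, 1 member was at least 2-fold higher (Crebbp) and 1 at least 2-fold lower (Kat2a), beside 22.1% and 15.1% of 11738 genes. The Crebbp ratio was under 2-fold by library size alone (0.87) and on log2(TPM + 1) (0.68), while Kat2a was over 2-fold lower under each of 7 other settings. Among these settings, the minimum of 10 CPM leaves a member's ratio as it is and could not have changed it. No member differed by 2-fold between mAML and LSC, where 16.3% of genes were higher and 8.58% lower, or between LSC and GMP, where 13.4% were higher and 12.2% lower. Kat2b had a log2 ratio of 0.55 [0.46, 0.65] and Kat2a one of -0.68 [-0.77, -0.61] for mAML over LSC. Kat6a had 0.46 [0.41, 0.52] in the same comparison, or 0.28 with the length trend removed, and Kat6b had 0.11 [-0.02, 0.24], or -0.06. Kat5 was at 38.3 TPM in mAML, 40.8 TPM in LSC and 36.1 TPM in GMP, with a log2 ratio of -0.03 [-0.11, 0.06] for mAML over LSC and 0.40 [0.30, 0.51] for mAML over GMP on TMM-scaled counts. Kat8 was at 18.5, 23.0 and 23.0 TPM, with ratios of -0.24 [-0.38, -0.10] and -0.00 [-0.17, 0.16]. The members' median ratio was 0.28 for mAML over LSC, 0.47 for mAML over GMP and 0.24 for LSC over GMP, beside -0.03, 0.03 and 0.01 for all genes.

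Markers of other cells differed between these libraries. The 8 mature myeloid markers summed to 19840 CPM in mAML, 3568 CPM in LSC and 2314 CPM in GMP, and the 7 GMP markers to 2048, 24280 and 34340 CPM. The 6 erythroid markers summed to 1091 CPM in mAML, with all 6 above 0 and most of it from Hba-a1 (600 CPM) and Hbb-b1 (470 CPM), against 2.79 CPM in LSC and 67.5 CPM in GMP. T and NK cell markers summed to 149, 71.1 and 395 CPM in mAML, LSC and GMP. Nkg7 made up 21.0, 70.2 and 394.5 CPM of that, and the other 7 ran the other way, each at 5.99 to 36.7 CPM in mAML and at no more than 0.35 CPM in LSC and GMP. The eosinophil, mast and basophil markers summed to 6.26, 10.1 and 674 CPM in mAML, LSC and GMP. Their part in the ratios was not tested.

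**Figure D4:**
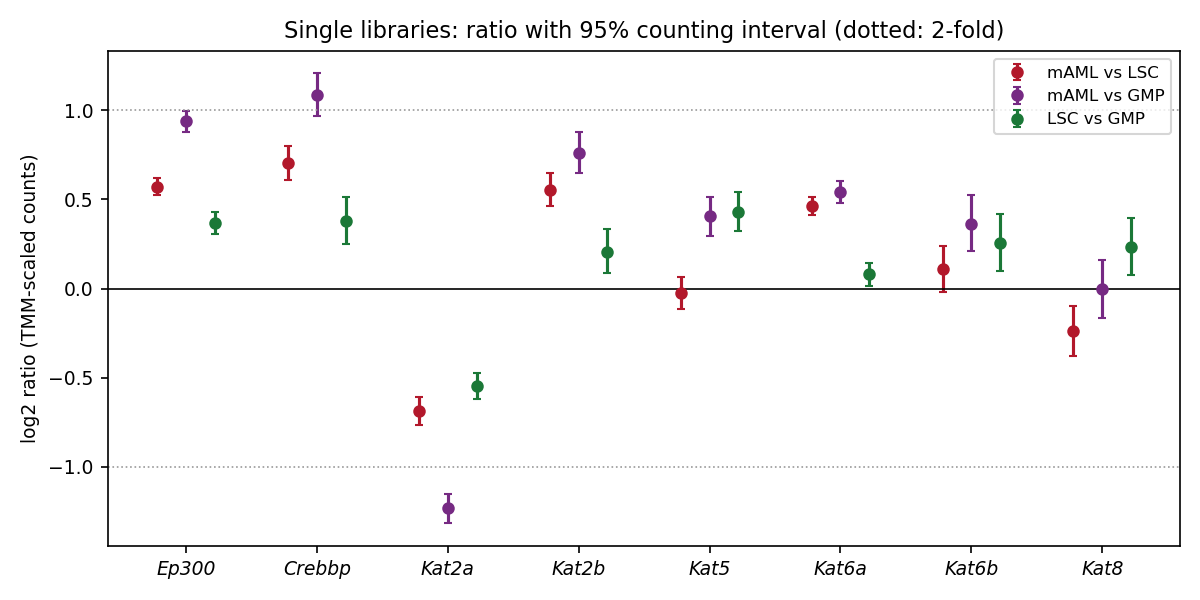
Log2 ratio of each member between single libraries (mAML over LSC, mAML over GMP, LSC over GMP) on TMM-scaled counts, with 95% intervals for counting error only and dotted lines at 2-fold. Kat2a is below 0 in all 3 comparisons, at -0.68, -1.23 and -0.55, and Crebbp reaches 1.08 for mAML over GMP.

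Partner genes of the members went both ways at 72 h against 0 h, on TMM-scaled counts with the edgeR call used above. At this time 25.9% of all genes passed as higher and 29.4% as lower, and a list whose shares are near these is no result about the list. Of 15 other genes with reported acetyltransferase activity, 7 rose and 5 fell (median log2 change 0.19, beside -0.02 for all genes). Clock, a circadian transcription factor, had 55.2 ± 20.4 CPM at 72 h, against 9.38 ± 2.63 CPM at 0 h (SD, n = 2 each), a log2 change of 2.55 (adjusted p 0.0012). Atat1, the tubulin acetyltransferase, rose by 2.03 (0.00193), and Hat1, which acetylates newly made histone H4, fell by 1.10 on the log2 scale (0.000506). Esco2, which acetylates cohesin in S phase, had 0.12 ± 0.17 CPM at 72 h and 8.17 ± 6.02 CPM at 24 h, against 31.5 ± 9.09 CPM at 0 h (adjusted p 0.000184 and 0.018).

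The 23 SAGA and ATAC partners of GCN5 and PCAF gave 9 rises and 6 falls (median 0.29). Atxn7, of the deubiquitinase module, rose by 0.94 (adjusted p by edgeR 0.000104) and Mbip, of ATAC, by 0.72 (0.0115). Wdr5, a scaffold that also serves MLL and NSL complexes, had 63.3 ± 2.02 CPM at 72 h, against 185 ± 6.46 CPM at 0 h, and fell by 1.55 on the log2 scale (1.73e-05). Taf9 fell by 1.17 (0.000253). The 18 TIP60 complex partners gave 5 rises and 6 falls (median 0.02), shares close to those of all genes (25.9% and 29.4%). The enhancer of polycomb genes Epc1 and Epc2 rose by 1.41 and 1.34 (0.000108 and 0.000382), while the ATPase gene Ruvbl2 fell by 1.96 (1.31e-05) and H2afz, which encodes the variant histone H2A.Z that the complex deposits, fell by 1.80 (6.02e-06).

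Of 9 partners of MOZ, MORF and the related HBO1 enzyme 5 rose and 1 fell (median 0.37). Brpf3, a BRPF scaffold, had 123 ± 8.99 CPM at 72 h, against 23.0 ± 6.57 CPM at 0 h (log2 change 2.42, adjusted p by edgeR 3.22e-05), and Jade2, a scaffold of HBO1 complexes, rose by 1.63 (0.00214). Jade1, also an HBO1 scaffold, fell by 0.74 (0.00242), a call that was lost on log2(TPM + 1). Of 12 MSL and NSL partners of MOF 6 rose and 1 fell (median 0.32). Ogt, the O-GlcNAc transferase, rose by 1.93 (0.00228) and Phf20l1 by 1.03 (0.00118), and the 1 that fell was Wdr5.

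Of 30 factors known to bind p300 or CBP, 27 were tested, with 8 rises and 7 falls (median 0.28), again near the 25.9% and 29.4% of all genes. The steroid receptor coactivators Ncoa3 and Ncoa1, both of which are also in the first list, rose by 1.57 and 1.09 (adjusted p by edgeR 3.97e-05 and 0.000792). Ets1 had 7.54 ± 1.02 CPM at 72 h, against 75.6 ± 4.74 CPM at 0 h, and fell by 3.32 (0.000108). Myb, whose protein needs the KIX domain of p300 and CBP, fell by 1.40 (0.000665). Of 12 genes that supply acetyl-CoA none rose and 8 fell (median -0.46). Acss1, the mitochondrial acetyl-CoA synthetase, fell by 2.51 (0.00897) and Pdha1, of pyruvate dehydrogenase, by 1.32 (1.62e-05). By library size alone that list had 3 rises and 4 falls, and on log2(TPM + 1) 5 rises and 4 falls with a median of 0.25, below the 0.62 of all genes. The other 6 lists gained rises under both scalings, with 13 rises and 2 falls for the TIP60 partners on log2(TPM + 1). With the length trend removed, the medians of the other acetyltransferases (-0.17), the p300 and CBP binding factors (-0.05) and the TIP60 partners (-0.01) were below 0.

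**Figure D5:**
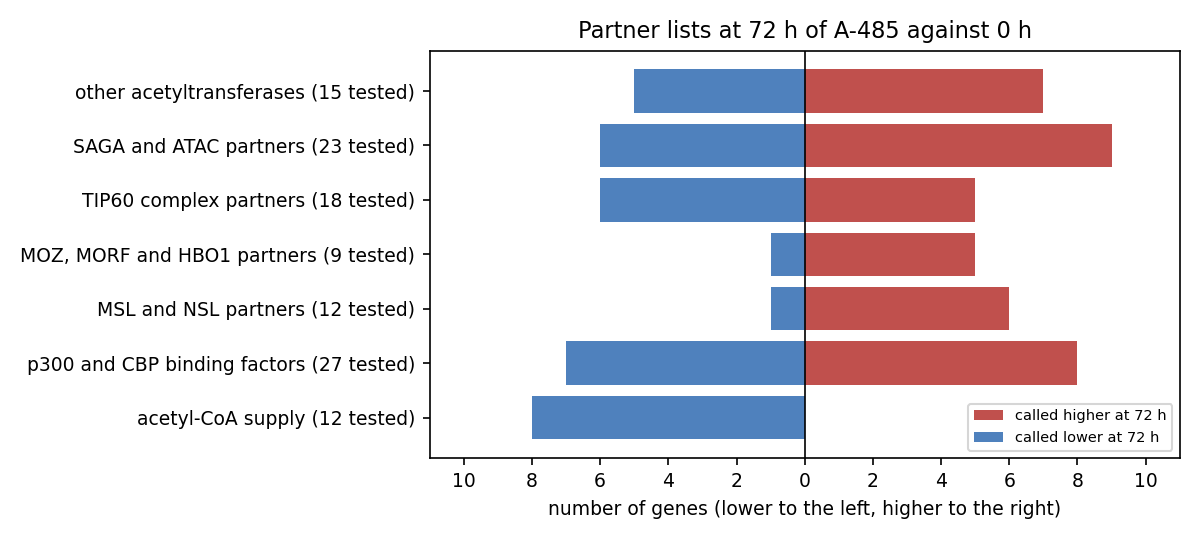
Number of genes of each partner list called lower (left) or higher (right) at 72 h of A-485 against 0 h by edgeR on TMM-scaled counts, with the number tested beside each list. The acetyl-CoA supply list has 8 falls and 0 rises of 12, and the MOZ, MORF and HBO1 list 5 rises and 1 fall of 9, where 25.9% of all genes were called higher and 29.4% lower.

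The genes with the pattern most like each member were sought among 9026 genes with a mean of at least 10 CPM, by the root mean square difference of centred log2 CPM over the 10 time-course libraries, a description that shares the libraries' scaling. Nearest to Ep300 were Ppp6r2 (0.097), Secisbp2l (0.0998), Phip (0.13) and Tprgl (0.13), where the median gene lay 0.72 away. Nearest to Crebbp were Lipa (0.12), Mef2a (0.13), Secisbp2l (0.14) and Mapkbp1 (0.14), with a median of 0.79. Secisbp2l stood in both lists and had a log2 change of 1.75 at 72 h. The other members had as nearest genes Eif4g1 and Coa3 for Kat2a, Slc35f6 and Pnrc2 for Kat2b, Prkaca and Ngly1 for Kat5, Hipk3 and Zfx for Kat6a, Scai and Dopey1 for Kat6b, and March5 and Opa1 for Kat8, at distances of 0.045 to 0.12. Among the members themselves Ep300 and Crebbp were the closest pair (0.157), followed by Ep300 and Kat6b (0.164), and Crebbp and Kat2a the farthest (0.94).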

How the data were processed

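Libraries followed standard Illumina procedures after column extraction of RNA, per the labels' protocols. STAR, RSEM and the build mm9 are named in the submitters' processing notes, without versions. The deposited files, per the file headers, give an expected count (estimated reads per gene, not scaled) and a TPM (scaled by the authors for length and depth within each library). Expected counts were rounded. The 10 time-course libraries were fitted together with edgeR 4.0.16 in R 4.3.3 (TMM, filterByExpr, quasi-likelihood test, time as a factor, no block), which left 11119 genes, and p-values were Benjamini-Hochberg adjusted over all of them at 0.05. The SE is the absolute log2 change over the square root of F, and the common biological coefficient of variation was 0.186. For pairs of single libraries, log2 ratios were formed from CPM after TMM with 5 as prior count, and genes below 1 CPM in both were left out.

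In simulated data of 10891 genes for 8 h against 0 h, the fit recovered 55% of 2-fold and 96% of 4-fold changes, with 6 false calls of 157. The simulation changed a far smaller share of genes than the 38.9% called in the data, as many up as down. It had a fixed dispersion and no length trend, so its share of false calls does not carry over to the data. Alternatives were other scalings, no filter, DESeq2 1.42.0, limma 3.58.1 on log2(TPM + 1) and log2(TPM + 0.1), a loess trend on effective length removed (span 0.4, centred on its median so that the scaling is kept; the first version was not centred, the change was made after its values were seen, and both are reported), a replicate block, the 2 times alone, and each library left out. The members, the partner and marker lists and the tests were chosen with earlier results of these data known. Named partner genes are the up to 2 largest rises and falls of each list at 72 h that were called, reached 10 CPM and did not overlap. Sequences are from RefSeq on GRCm38.p6, not the authors' build, and no coordinate of the files is used.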

Additional observations from a re-analysis of the deposited data

How the results depend on the processing

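The lowest member value was 138 counts, and each time had 2 libraries. The 6 rises against 0 h at 24, 48 and 72 h were called under every alternative run. Each member's changes against 0 h, and at 72 h against 8 h, were counted once per alternative. At 24 h against 8 h only Kat6b was counted, and at 48 h against 24 h and 72 h against 48 h no member was. Of these values 785 kept direction and call, 34 lost a call, 13 gained one and 29 changed sign. A change of sign was counted first, so the 29 include lost calls, such as that of Kat2a at 48 h on log2(TPM + 1). Of the single-library ratios, also counted once per alternative, 105 values stayed within the counting interval of the reported ratio and 63 moved beyond it. The 105 include all values at the minimum of 10 CPM, an alternative that leaves each ratio as reported and could not move it. The cause of these differences was not tested.

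By library size alone, all genes called higher were 4078, 4175, 4415 and 4616 at 8, 24, 48 and 72 h, with 1520 lower at 8 h, no member was called lower (0) at 24, 48 or 72 h, and Kat2a at 8 h (0.13) and Kat8 at 24 h (0.25) changed sign. On log2(TPM + 1) by limma, 4859, 5105, 5808 and 6104 genes were higher and 1358, 1600, 1743 and 1638 lower, with 0 members lower. On log2(TPM + 0.1), 4897, 5148, 5815 and 6137 were higher and 1302, 1506, 1711 and 1615 lower, again with 0 members lower. Kat2a was then at 0.26, 0.059 and 0.26 at 8, 48 and 72 h on log2(TPM + 1) and at 0.27, 0.060 and 0.27 on log2(TPM + 0.1), and Kat8 at 24 h was at 0.43 and 0.45. Kat8 at 24 h was also above 0 with the length trend removed (0.12), with the block added to that (0.12) and with the trend not centred (0.30), a version added after seeing the data, in which 0 members were lower at 72 h and Kat8 was called at 48 h (0.71, adjusted p by edgeR 0.0243).

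At 24 h against 8 h, 0 members were called with no filter, on both TPM scales, with the length trend removed or not centred, with the replicate block, with both, and with the 2 times alone, where 192 genes were higher and 329 lower. At 48 h against 24 h, genes called higher numbered 7 with no filter, 26 by DESeq2, 20 on either TPM scale (150 and 146 lower), 7 with the length trend removed, 9 with it not centred and 1 with the 2 times alone (2 lower). At 72 h against 48 h DESeq2 called 8 higher and 4 lower. At 72 h against 8 h, 4 members were higher on log2(TPM + 1) and on log2(TPM + 0.1), with 3217 and 3181 genes higher and 1240 and 1234 lower, 1 member with the length trend removed, with or without the block, and 1060 genes were higher with the 2 times alone. There Kat8 was at 0.12 and 0.13 on the TPM scales, at 0.023 with the length trend removed, at 0.025 with the block as well and at 0.11 not centred, Kat2b at -0.0590 and -0.0593 and Kat6a at -0.12 and -0.12 with the length trend removed, without and with the block.

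Over the fits that leave out 1 library, genes higher and lower at 8 h ranged over 1186 to 2128 and 1496 to 2481, at 24 h against 8 h over 650 to 956 and 834 to 1211, at 48 h against 24 h over 0 to 17 and 0 to 214, and at 72 h against 8 h over 938 to 1753 and 1123 to 2006, with 0 to 1 lower at 72 h against 48 h. Members lower were 0 to 1 at 24 h and at 72 h, and members higher 0 to 1 at 24 h against 8 h and 1 to 2 at 72 h against 8 h. Kat8 at 24 h ranged from -0.21 to 0.078, and at 72 h against 8 h Kat2b ranged from -0.10 to 0.21, Kat6a from -0.053 to 0.29 and Kat8 from -0.32 to 0.051.

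The replicate numbers were not taken to pair the samples, since the labels state no pairing. The differences of replicate 2 from replicate 1 correlated at 0.642 between 8 and 24 h, -0.399 between 8 and 72 h and -0.405 between 24 and 72 h. Between the other times the correlations were 0.02 to 0.15. Whether libraries are paired, with the numbers in another order at 72 h, was not tested. The replicate block by the given numbers removed 1 member call, that of Kat6b at 24 h against 8 h (0.45, adjusted p by edgeR 0.0544). With the 72 h numbers crossed, chosen after seeing the data, 1890 genes were higher and 2095 lower at 72 h against 8 h. The members' calls were not examined in that fit.

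In the single libraries, 934 genes were at least 2-fold higher in LSC than in GMP on log2(TPM + 1), and 987 higher and 733 lower at a minimum of 10 CPM. For mAML over LSC that minimum left 1156 higher and 639 lower. For mAML over GMP, 0 members were 2-fold higher by library size alone, on log2(TPM + 1), where 1701 genes were, and on log2(TPM + 0.1), and 1167 genes were lower at the minimum of 10 CPM.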

Other observations

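The untreated 0 h libraries and the single LSC library carry the same cell type label and were set side by side with no test, since LSC has 1 library. Kat2a was at 33.2 and 29.3 TPM at 0 h and 37.3 TPM in the single LSC library, and Kat5 at 29.5 and 34.5 TPM and 40.8 TPM. Kat6b was at 3.05 and 3.04 TPM at 0 h and 4.49 TPM in the single library. The ratio of Kat2a to Kat2b was 2.83 and 2.32 at 0 h and 2.98 in the single library. The libraries stood apart in their markers: GMP markers summed to 9080 and 8416 CPM at 0 h and 24280 CPM in the single LSC library, eosinophil, mast and basophil markers to 371 and 445 CPM and 10.1 CPM, Itga2b was at 417 and 343 CPM and 0.45 CPM, and Pecam1 at 1014 and 898 CPM and 21.3 CPM. Length minus effective length, as deposited, was 248 to 285 nt in the time course and 149 to 168 nt in the single libraries.

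The mature leukemia library and the 72 h libraries share no control, and their members' values are given side by side with no test. For mAML over LSC and for 72 h over 0 h, Ep300 had log2 values of 0.57 and 1.71, Crebbp 0.70 and 1.89, Kat2b 0.55 and 1.17, and Kat6a 0.46 and 0.80. Kat2a had -0.68 and -0.45. Kat6b had 0.11 and 1.99, Kat5 -0.03 and 0.53, and Kat8 -0.24 and 0.08.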
